A study of Rattus norvegicus with 22 samples.

Results

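The samples described here are engineered cardiac tissues that were kept unstretched and given BIRB796, an inhibitor of p38 mitogen-activated protein kinase (MAPK), set against unstretched tissues without it. They were chosen by their titles and by scan session: BIRB796 replicates 1 to 4 and control replicates 4 to 7, which is 8 of the 22 samples of the series. An engineered cardiac tissue is a cylinder of heart cells in a matrix gel, held by anchors at both ends. All groups were made from the ventricles of Sprague Dawley rat embryos at gestational day 14.5 and cultured for 7 days. The BIRB796 tissues received 10 µM of the compound for 48 h from culture day 5, and the control tissues received neither compound nor stretch. A further group of 4 tissues from the same scan session had BIRB796 together with cyclic stretch at 0.5 Hz and 5% elongation. The tissues hold every cell type of the embryonic ventricle that survives culture, so fewer cells of a type and less RNA per cell cannot be told apart. The series text calls the replicates biological but ties none to a litter or culture, so a p-value here reflects only how far these samples spread.

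p38 MAPK is a stress-activated protein kinase. The kinases MKK3 and MKK6 (genes Map2k3 and Map2k6) switch it on, it phosphorylates MK2 (Mapkapk2) among other targets, and MK2 in turn phosphorylates the small heat shock protein Hspb1 and proteins that hold AU-rich messages of cytokines in check. In muscle and heart the pathway is known for its part in stress responses, differentiation and the restraint of cell division. Its activity is set by phosphorylation, which an RNA array does not measure.

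Each value below is the log2 of the spot signal minus the 75th percentile of its array, so that 0 marks a probe as bright as that percentile. The 75th percentile ran from 1409 to 1967 signal units on the BIRB796 arrays and from 1237 to 2135 on the control arrays, and 72.9% to 79.9% and 71.4% to 78.3% of probes were well above background. All 9 cardiomyocyte markers looked at, from Myh6 and Tnnt2 to Ryr2 and Nkx2-5, were well above background on all 8 arrays. The pairs of replicates within a group differed by 1.68 to 4.62 times the noise between repeated spots of an array. Each array was counted as 1 sample, and whether any pair shares its RNA was not tested. The arrays lay on 4 slides. Slide 6 held BIRB796 replicate 1 and control replicate 4, slide 7 held control replicates 5 and 6, slide 8 held control replicate 7, and slide 9 held BIRB796 replicates 2 to 4, so that slide 6 alone gives a difference between the groups within a slide.

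**Figure D1:**
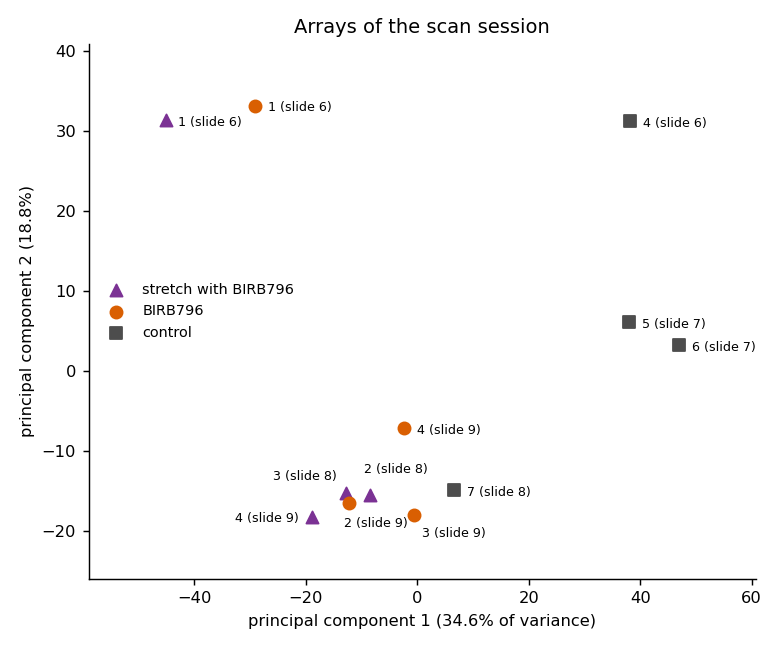
Map of the 12 arrays of the scan session on their first 2 principal components, with the percent of variance on each axis; triangles are stretch with BIRB796, circles BIRB796 and squares control, labelled with replicate and slide. Control replicate 7 sits at 6.59 on the first axis, between the BIRB796 arrays at -29.1 to -0.54 and the other controls at 38.1 to 46.9.

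Control replicate 7 stood apart from the other controls, toward the BIRB796 arrays, as the map of the arrays shows. It was the dimmest of the 8 arrays, and its mean over 24 macrophage and leukocyte markers was 1.76, against 2.54 to 2.70 in the other controls. Of 19756 genes tested with limma, 642 (3.25%) were called at an adjusted p under 0.05, with 293 higher (1.48%) and 349 lower (1.77%) in BIRB796 tissue. Scaling each array on its median instead gave 379 higher and 220 lower genes. The smallest adjusted p was 0.0110, and 214 called genes changed at least 2-fold. In 639 of the 642 genes the 2 groups did not overlap, where a gene without a value on every array was counted as overlapping. The genes were called on these same arrays, so nearly all were bound to lie apart. Over all genes with a value on every array, 7.58% lay apart on the higher side and 6.03% on the lower side.

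How many genes passed depended on single control arrays, as the bars of calls with each array left out show. Without control replicate 7 limma called 2535 genes, without control replicate 4 it called 4, and without control replicate 5 or 6 it called 0, with 2857 and 2905 genes at an unadjusted p under 0.05. With slide as a fixed term over the 12 arrays of the session it also called 0 genes (2321 at an unadjusted p under 0.05). There 641 of the 642 genes had the same direction, but that fit reuses arrays on which they were called. Slide 7 held controls only, so control replicates 5 and 6 add nothing to the difference in that fit. The groups are linked there by slide 6 and by the stretch with BIRB796 arrays on slides 8 and 9. Leaving out BIRB796 replicate 1, 2, 3 or 4 left 210, 128, 523 or 73 genes. The calls below therefore hold for these 8 arrays together, and each gene is given with its values.

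Control replicates 1 to 3 came from another scan session and are not in the comparison. With all 7 controls limma called 215 genes, and 30 of the 69 called genes named below, Actg2, Tagln, Myh3, Eln, Wnt2b and Krt7 among them. In 15 of the 69 the difference moved by over 1.5 times with all 7 controls, and that value stands beside each of them. Background correction by normexp, which adds an offset, with quantile scaling left 14 of the 69 differences over 1.5 times smaller: Lmod1, Myh1, Mybpc1, Kcnd3, Col10a1, Comp, Inhbb, Fgf8, Axin2, Muc16, Lrp2, Grm8, Prss3bl1 and Ephb1.

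**Figure D2:**
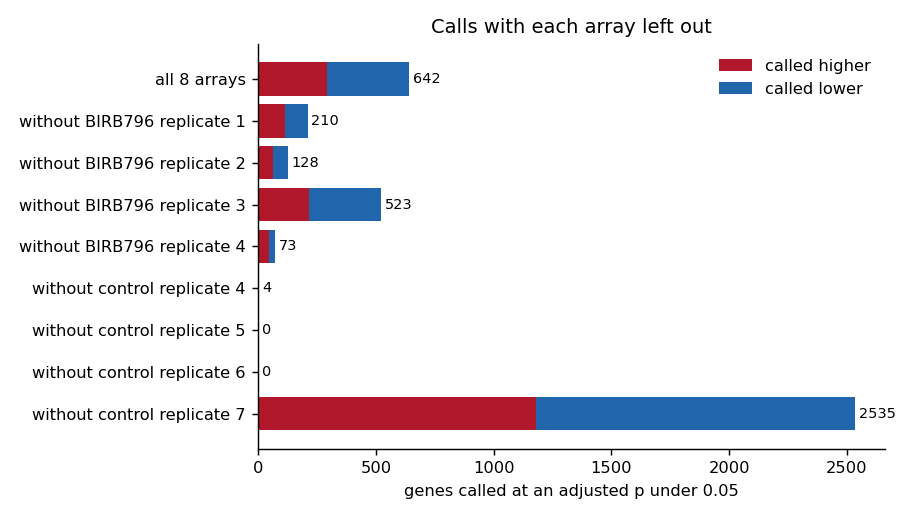
Genes called by limma with all 8 arrays and with each array left out, BIRB796 replicates above control replicates; red is called higher and blue called lower in BIRB796 tissue, and the number at each bar is the total. All 8 arrays give 642 genes, leaving out control replicate 7 gives 2535, and leaving out control replicate 5 or 6 gives 0.

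Among the p38 pathway's own genes, Map2k6 rose and Mapk12 fell. They were the 2 called of 33 tested kinases, adaptors and substrates, where 3.25% of all genes were called, and the median difference was 0.08 log2, against 0.01 over all genes. Map2k6, the activating kinase MKK6, was at -2.04, -1.89, -2.18 and -1.95 in BIRB796 tissue, against -2.61, -2.68, -2.87 and -2.58 in control tissue. All 4 BIRB796 samples lay above all 4 controls, and the rise was 0.67 ± 0.10 (SE, limma adjusted p = 0.0205), or 1.01 with all 7 controls (adjusted p = 0.0586). Mapk12, which encodes the gamma isoform of p38, fell by 0.84 ± 0.17 (adjusted p = 0.0424), at -3.76 to -3.29 in BIRB796 tissue and -3.07 to -2.34 in control tissue. Leaving out any 1 array except control replicate 7 ended the call of Mapk12.

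The alpha isoform gene Mapk14 averaged 4.09 ± 0.08 in BIRB796 tissue and 3.95 ± 0.07 in control tissue (SD, n = 4 each), and the groups overlapped. The difference was 0.14 ± 0.07 (limma adjusted p = 0.339). The beta isoform gene Mapk11 differed by -0.01 ± 0.10 (adjusted p = 0.968), Mapkapk2 by 0.08 ± 0.08 (adjusted p = 0.598) and Hspb1 by 0.23 ± 0.14 (adjusted p = 0.385). None of these 4 genes passed the test. Zfp36, the gene of an AU-rich message decay factor that MK2 phosphorylates, and Il6, a cytokine with such a message, were not above background on any of the 8 arrays and were not tested. Of 18 MAPK phosphatase and Sprouty genes, feedback inhibitors of MAPK signalling, Dusp14 rose by 0.58 ± 0.10 (limma adjusted p = 0.0313) and Dusp22 fell by 0.39 ± 0.08 (adjusted p = 0.0474). Over all genes 3.25% were called. Dusp22 differed by -0.17 with all 7 controls (adjusted p = 0.458). Dusp1, the phosphatase that switches off p38, lay at -2.35 to -1.85 in BIRB796 tissue and -2.78 to -2.40 in control tissue without passing (0.38 ± 0.14, adjusted p = 0.185).

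Many genes of the smooth muscle contractile apparatus and of pericytes rose in BIRB796 tissue. Of 19 tested markers 11 rose and 0 fell, where 1.48% of all genes were called higher, with a median difference of 0.91 log2, the highest of the 37 lists looked at. Smooth muscle gamma actin, Actg2, was at 4.63, 3.83, 3.61 and 3.76 in BIRB796 tissue, against 1.76, 1.84, 1.70 and 2.38 in control tissue. The lowest BIRB796 sample lay above the highest control of the session, replicate 7, and the rise was 2.04 ± 0.24 or 4.10-fold (limma adjusted p = 0.0152). Smooth muscle alpha actin, Acta2, was at 3.52, 2.91, 2.71 and 2.87 in BIRB796 tissue, against 1.59, 1.82, 1.66 and 2.03 in control tissue. It also separated the groups and rose by 1.23 ± 0.18 (adjusted p = 0.0217). The actin-binding protein transgelin, Tagln, was the brightest of the called genes of this kind that are plotted, at 5.91, 5.49, 5.33 and 5.43 in BIRB796 tissue, against 4.24, 4.40, 4.14 and 4.83 in control tissue (1.14 ± 0.18, adjusted p = 0.0240).

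The smooth muscle myosin heavy chain Myh11 lay between -1.27 and -0.41 in BIRB796 tissue and between -2.77 and -1.94 in control tissue, a rise of 1.65 ± 0.25 (limma adjusted p = 0.0217). Leiomodin 1, Lmod1, an actin nucleator of smooth muscle, lay between -3.99 and -3.53 in BIRB796 tissue and between -6.13 and -5.44 in control tissue, a rise of 1.89 ± 0.16 with the smallest adjusted p of all genes (0.0110). Tropomyosin 2, Tpm2, rose by 1.33 ± 0.19 and calponin, Cnn1, by 0.91 ± 0.16. Rgs5, a regulator of G protein signalling that marks pericytes, rose by 1.86 ± 0.34 (adjusted p = 0.0341). Its relative Rgs4, which is not on the list, was at 2.84, 2.16, 2.13 and 2.33 in BIRB796 tissue, against 0.17, 0.38, 0.33 and 0.77 in control tissue (1.96 ± 0.19, adjusted p = 0.0141). The other called pericyte and vessel wall markers were Cspg4 at 1.45, Notch3 at 1.14 and Mcam at 0.81. Smtn at 0.03, Mylk at -0.13 and Des at -0.16 were not called.

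**Figure D3:**
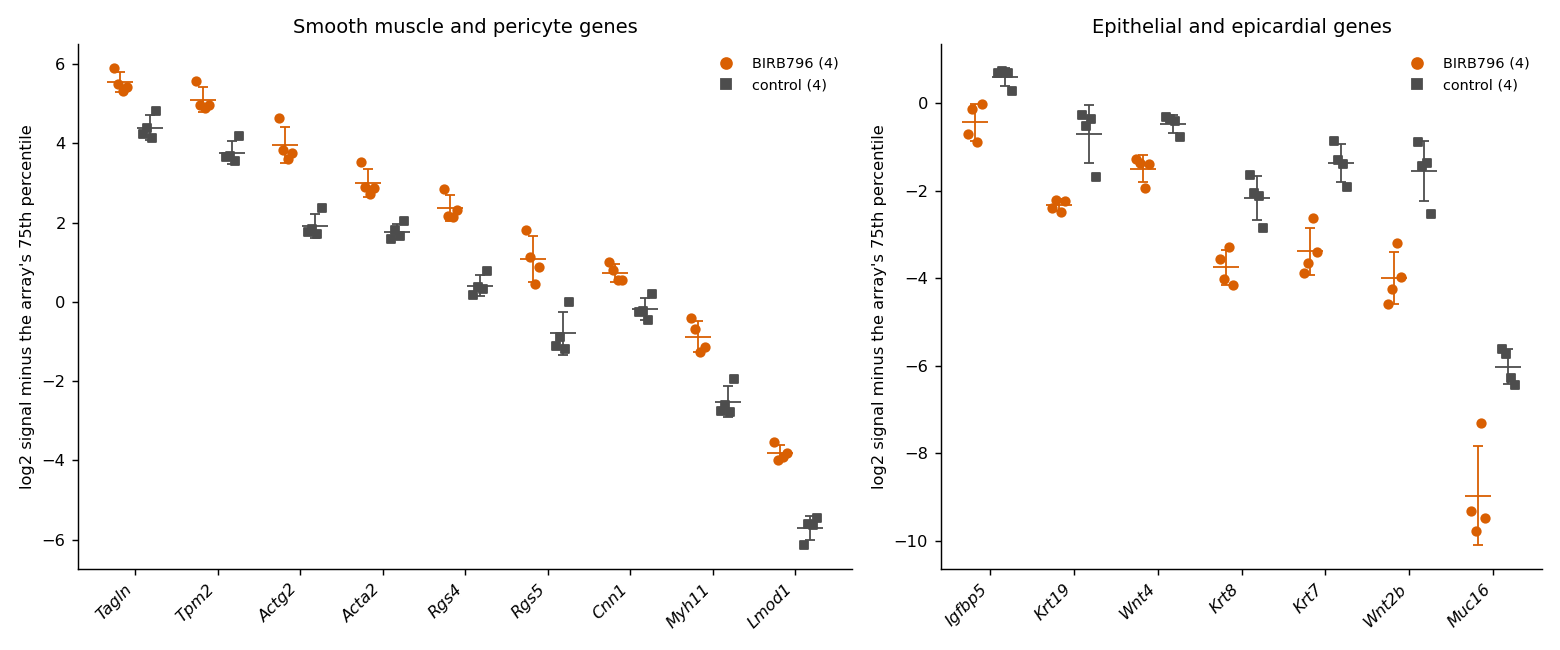
Level of 9 smooth muscle and pericyte genes (left) and 7 epithelial and epicardial genes (right), as log2 signal minus the array's 75th percentile; circles are the 4 BIRB796 samples, squares the 4 controls, and bars the mean ± SD. The 2 groups do not overlap in any of the 16 genes, and control replicate 7 is the control nearest to BIRB796 tissue in Actg2, Acta2 and Tagln.

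The mean over the 19 smooth muscle markers was 1.67 to 2.25 in BIRB796 tissue and 0.82 to 1.34 in control tissue. On slide 6 the median difference was 1.30, and with slide as a fixed term it was 0.95, with 0 calls. The count of risen markers was 5 with all 7 controls, 13 without control replicate 7, 1 without control replicate 4 and 0 without control replicate 5 or 6, and it was 6, 3 and 2 without BIRB796 replicate 1, 2 and 4.

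Of 20 fibroblast markers 2 rose, where 1.48% of all genes were called higher: S100a4 by 0.45 (0.26 with all 7 controls, adjusted p = 0.318) and the elastin cross-linking enzyme gene Loxl1 by 0.75, and the median was 0.16. Tcf21, a transcription factor of cardiac fibroblasts, was at -0.60 and was not called. Periostin, Postn, a matricellular protein of activated fibroblasts, averaged 2.54 ± 0.39 in BIRB796 tissue and 2.65 ± 0.08 in control tissue (SD, n = 4 each), a difference of -0.11 ± 0.18 (limma adjusted p = 0.773).

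Several genes of elastic fibres and cartilage matrix were higher in BIRB796 tissue. Of 34 genes of matricellular, elastic and proteoglycan matrix 8 rose and 0 fell, where 1.48% of all genes were called higher, with a median of 0.29. Acan encodes aggrecan, the large proteoglycan of cartilage. It was at -0.37, -1.19, -2.49 and -1.73 in BIRB796 tissue, against -4.28, -4.09, -4.80 and -2.85 in control tissue. The groups did not overlap but came close, with BIRB796 replicate 3 near control replicate 7, and the rise was 2.56 ± 0.52 (limma adjusted p = 0.0427). The rise was 1.39 with all 7 controls (adjusted p = 0.346). Fibulin 5, Fbln5, which helps to assemble elastic fibres, was at 3.48, 2.39, 2.50 and 2.56 in BIRB796 tissue, against 1.29, 1.34, 1.12 and 1.56 in control tissue. Its rise was 1.41 ± 0.24 (adjusted p = 0.0267), with BIRB796 replicate 1 above the other 3.

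Elastin itself, Eln, was among the bright genes, at 7.60, 7.46, 7.14 and 7.31 in BIRB796 tissue, against 6.27, 6.46, 6.43 and 6.70 in control tissue. All 4 BIRB796 samples lay above the controls, and the rise was 0.91 ± 0.13 or 1.88-fold (limma adjusted p = 0.0205). The further risen members were Cilp at 0.63, Fbn1, the fibrillin of elastic fibres, at 0.61, Comp at 0.51 and Ogn at 0.38. The direction of Comp turned with all 7 controls, to -0.51 (adjusted p = 0.627). Of 22 collagen chain genes 1 rose, where 1.48% of all genes were called higher: Col12a1, by 0.96 ± 0.20 (limma adjusted p = 0.0443). The fibrillar chains Col1a1 and Col3a1 were at 0.13 and -0.12 and were not called. Col10a1, the collagen of hypertrophic cartilage, was not on that list. It was above background in all 4 BIRB796 samples and in 2 of 4 controls, and rose by 3.10 ± 0.55 (adjusted p = 0.0308), with BIRB796 replicate 1 at -3.11 and the other 3 at -4.94 to -4.68. Its rise was 1.55 with all 7 controls (adjusted p = 0.356), and 1.02 with normexp and quantile scaling. The count of risen matrix genes was 2 with all 7 controls, 13 without control replicate 7, 0 without control replicate 4, 5 or 6, and 2, 0, 5 and 0 without BIRB796 replicate 1, 2, 3 and 4.

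Secreted regulators of bone morphogenetic protein (BMP), activin and Wnt signalling changed in both directions. Grem1 encodes gremlin 1, a secreted BMP antagonist. It was at 3.69, 2.86, 2.37 and 2.38 in BIRB796 tissue, against 0.27, 0.54, 0.52 and 0.85 in control tissue, a rise of 2.28 ± 0.29 or 4.86-fold (limma adjusted p = 0.0169). Every BIRB796 sample lay well above every control of the session. Control replicates 1 to 3 of another scan session, which the comparison does not use, were at 4.11 to 4.42, above all 4 BIRB796 samples, and with all 7 controls the difference was 0.67 (adjusted p = 0.654). The activin-binding follistatin relative Fstl3 rose by 1.39 ± 0.20 (adjusted p = 0.0207), the ligand Tgfb3 by 1.01 ± 0.16 (adjusted p = 0.0240) and Bmp4 by 0.89. With all 7 controls Tgfb3 differed by 0.61 (adjusted p = 0.279) and Bmp4 by 0.50 (adjusted p = 0.312). The activin subunit gene Inhbb fell by 1.04 ± 0.16 (adjusted p = 0.0240). In all 4 rose and 1 fell of 29 genes of TGF-beta, activin and BMP signals, with a median of 0.14. Over all genes 1.48% were called higher and 1.77% lower.

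Among 25 Wnt genes 2 rose and 4 fell, where 1.48% of all genes were called higher and 1.77% lower. The median was -0.17. Frzb, a secreted Wnt antagonist, was at 2.21, 1.78, 2.00 and 1.84 in BIRB796 tissue, against 0.10, 0.21, 0.11 and 0.81 in control tissue, a rise of 1.65 ± 0.18 (limma adjusted p = 0.0141), or 0.97 with all 7 controls (adjusted p = 0.300). Dkk3, of the Dickkopf family, rose by 0.66 ± 0.08 (adjusted p = 0.0169). The ligand Wnt2b was at -4.58, -4.24, -3.18 and -3.97 in BIRB796 tissue, against -0.89, -1.42, -1.36 and -2.52 in control tissue, a fall of 2.44 ± 0.39 (adjusted p = 0.0246). Axin2, a feedback inhibitor that Wnt signalling itself induces, fell by 1.35 ± 0.24 (adjusted p = 0.0303), Wnt4 by 1.02 ± 0.17 (adjusted p = 0.0255) and Wnt11 by 0.85 ± 0.13 (adjusted p = 0.0220). With all 7 controls Wnt4 differed by -0.08 (adjusted p = 0.936), since control replicates 1 to 3 were at -2.89 to -2.42. All 6 called Wnt genes separated the groups, and the levels of control replicate 7 lay closer to BIRB796 tissue in Wnt2b and Frzb.

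With all 7 controls the TGF-beta list had 0 risen genes and 1 fallen with a median of -0.05, and the Wnt list 1 risen and 3 fallen. Without control replicate 4, 5 or 6 no gene of either list was called, and without control replicate 7 the counts were 6 risen and 3 fallen for the TGF-beta list and 3 risen and 6 fallen for the Wnt list. Without BIRB796 replicate 2 or 4 the TGF-beta list had 1 risen gene, with 6 risen without BIRB796 replicate 3, and the Wnt list had 0 fallen genes, with 1 fallen without BIRB796 replicate 1. The insulin-like growth factor binding proteins Igfbp2 and Igfbp5 fell. Igfbp2 was at -0.03, -0.12, 1.56 and 0.58 in BIRB796 tissue, against 3.09, 2.63, 2.62 and 1.67 in control tissue (a fall of 2.00 ± 0.42, limma adjusted p = 0.0461). BIRB796 replicate 3 and control replicate 7 came closest to each other. Igfbp5 differed by -0.34 with all 7 controls (adjusted p = 0.616). These were 2 of 15 genes of that axis, where 1.77% of all genes were called lower, and Igf1 and Igf2 were not called.

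Targets of the transcriptional co-activator YAP and its DNA-binding partner TEAD rose in 3 of 16 tested genes and fell in 1. Over all genes 1.48% were called higher and 1.77% lower. The median was 0.39, and differences were positive in 14, against 52.6% of all genes. Ccn2, the matricellular growth factor also named CTGF, was at 6.11, 5.68, 5.48 and 5.81 in BIRB796 tissue, against 4.39, 4.52, 4.53 and 4.81 in control tissue. Its rise was 1.21 ± 0.15 or 2.31-fold (limma adjusted p = 0.0152). The related Ccn1, or CYR61, was at 3.05, 2.77, 2.92 and 3.04 in BIRB796 tissue, against 1.92, 1.94, 1.97 and 2.30 in control tissue, a rise of 0.91 ± 0.11 (adjusted p = 0.0152). In both genes every BIRB796 sample lay above every control of the session. Control replicates 1 to 3 of another session were at 5.94, 5.13 and 4.92 in Ccn2 and 2.78, 2.01 and 1.79 in Ccn1. With all 7 controls Ccn2 differed by 0.88 (limma adjusted p = 0.148) and Ccn1 by 0.85 (adjusted p = 0.0541). The Hippo pathway kinase gene Lats2 rose by 0.54 ± 0.09 (adjusted p = 0.0268), and Wwc1, which encodes the upstream regulator KIBRA, fell by 0.82 ± 0.10 (adjusted p = 0.0152). The list had 1 risen and 1 fallen gene with all 7 controls (median 0.16, 10 positive), 7 risen and 2 fallen without control replicate 7, none called without control replicate 4, 5 or 6, and 2, 2 and 1 risen without BIRB796 replicate 1, 2 and 4.

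TEAD proteins bind the MCAT motif, CATTCC on 1 strand and GGAATG on the other. The 250 bases before the annotated start of 3 risen genes are shown because they hold that motif, given in capitals. The sequences are RefSeq's for the rat assembly GRCr8, read 5′ to 3′ on the strand of the gene, and all 3 genes lie on the minus strand: Ccn2 at chr1:22624615-22624864, Ccn1 at chr2:237225690-237225939 and Acta2 at chr1:241172504-241172753.
Ccn2: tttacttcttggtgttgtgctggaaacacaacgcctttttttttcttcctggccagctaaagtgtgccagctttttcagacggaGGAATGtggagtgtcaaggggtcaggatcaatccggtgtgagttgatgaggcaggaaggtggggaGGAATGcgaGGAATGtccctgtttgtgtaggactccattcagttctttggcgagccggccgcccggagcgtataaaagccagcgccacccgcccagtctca
Ccn1: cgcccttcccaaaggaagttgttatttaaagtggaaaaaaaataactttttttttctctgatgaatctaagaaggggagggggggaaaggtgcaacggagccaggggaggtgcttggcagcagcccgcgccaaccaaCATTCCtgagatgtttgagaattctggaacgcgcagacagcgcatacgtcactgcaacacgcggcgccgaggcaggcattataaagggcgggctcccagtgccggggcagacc
Acta2: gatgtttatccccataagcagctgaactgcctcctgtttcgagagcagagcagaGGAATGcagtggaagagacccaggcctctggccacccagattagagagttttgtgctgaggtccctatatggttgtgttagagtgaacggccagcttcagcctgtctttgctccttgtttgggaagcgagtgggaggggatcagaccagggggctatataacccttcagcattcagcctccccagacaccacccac
The Ccn2 window holds 3 matches and the other windows shown 1 each. Of risen genes not shown, Loxl1 and Acan held 1 match each and Fbln5 held 0. Both strands of every promoter were searched for MCAT. Among genes tested with a promoter, 41 of 199 called higher held a match (20.6%), as did 12 of 183 called lower (6.56%) and 1168 of all 11336 (10.3%). The AP-1 motif TGANTCA, which is its own reverse complement, was in 11 of the 199 (5.53%), 12 of the 183 (6.56%) and 4.82% of all. In 13 smooth muscle marker promoters MCAT was in 2 (15.4%) and AP-1 in 3 (23.1%). The CArG box of serum response factor was searched only in its strict form, with A or T at every base of its core, so the 0 matches in 13 smooth muscle marker promoters (1.22% of all) leave out its variants. The motifs and genes were picked after results of these data were known, and a match is a run of letters, not a shown binding site.

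Genes of cardiac load rose in part, where 1.48% of all genes were called higher. No gene of the cardiomyocyte sarcomere list was called. Of 21 load and fetal genes 5 rose: Ccn2 and Ccn1 as above, the LIM protein genes Lmcd1 at 1.18 ± 0.20 (limma adjusted p = 0.0289) and Fhl1 at 0.93, and the EGF receptor ligand Hbegf at 0.83 ± 0.16 (adjusted p = 0.0389). The natriuretic peptide gene Nppb was at 3.18, 2.52, 2.43 and 2.05 in BIRB796 tissue, against 0.07, 0.82, 0.50 and 1.96 in control tissue. The groups only just stayed apart, at BIRB796 replicate 4 and control replicate 7, and the difference of 1.71 ± 0.40 did not pass (adjusted p = 0.0613). Nppa was at 3.62, 2.32, 2.60 and 1.69 in BIRB796 tissue, against 0.85, 1.12, 1.07 and 1.78 in control tissue, with overlapping groups and a difference of 1.35 ± 0.39 that did not pass (adjusted p = 0.0994). The count of risen load genes was 1 with all 7 controls, 10 without control replicate 7, 0 without control replicate 4, 5 or 6 and 3, 2, 3 and 1 without BIRB796 replicate 1, 2, 3 and 4.

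Errfi1, an inhibitor of the EGF receptor, was at 2.89, 2.54, 2.57 and 2.73 in BIRB796 tissue, against 1.37, 1.54, 1.53 and 1.83 in control tissue, a rise of 1.12 ± 0.12 (limma adjusted p = 0.0141). The groups stood clear of each other. It and Hbegf were the 2 called genes among 13 EGF family ligands, receptors and regulators, where 3.25% of all genes were called. Areg and Ereg were at 0.77 and 0.65 without passing.

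Of 24 cardiomyocyte sarcomere genes 0 were called by limma (0 higher and 4 lower at an unadjusted p under 0.05), with a median of -0.04 and a range from -0.44 to 0.24. The median was 0.01 with median scaling, 0.03 without control replicate 7 and 0.17 with all 7 controls. The adult myosin heavy chain Myh6 averaged 8.10 ± 0.11 in BIRB796 tissue and 8.15 ± 0.23 in control tissue, and Tnnt2, cardiac troponin T, 8.33 ± 0.17 and 8.33 ± 0.24 (SD, n = 4 each). Myh7, the slow myosin of the fetal rat ventricle, differed by 0.14 ± 0.18 (adjusted p = 0.715). The skeletal muscle genes Myh3, Myh1 and Mybpc1 were among the largest changes. Embryonic skeletal myosin, Myh3, was at -0.37, -0.15, -0.84 and -1.06 in BIRB796 tissue, against -3.76, -3.30, -3.65 and -2.77 in control tissue, a rise of 2.76 ± 0.27 or 6.79-fold (limma adjusted p = 0.0141). The fast skeletal myosin Myh1 rose by 2.63 ± 0.29 (adjusted p = 0.0141), and in both every BIRB796 sample lay above every control of the session. Control replicates 1 to 3 were at -3.81 to -2.24 in Myh1, and with all 7 controls its difference was 1.42 (adjusted p = 0.319). Mybpc1, slow skeletal myosin-binding protein C, fell by 3.25 ± 0.51 (adjusted p = 0.0240) and was above background in 2 of 4 BIRB796 samples and all 4 controls. With normexp and quantile scaling its difference was -1.10. Related myosin sequences could share a probe, which was not tested.

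Among calcium handling and ion channel genes, the potassium channel gene Kcnd3 fell by 0.55 ± 0.08 (limma adjusted p = 0.0205). Of 23 cardiac transcription factors 1 rose, where 1.48% of all genes were called higher: Foxc1, by 1.06 ± 0.15 (adjusted p = 0.0207).

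Krt7, Krt8, Krt19 and 3 other markers of the epicardium and mesothelium, the epithelial layers that cover the heart and body cavities, fell in BIRB796 tissue. Of 18 tested markers 6 fell and 0 rose, where 1.77% of all genes were called lower, 16 had negative differences, against 47.4% of all genes, and the median of -1.09 was the lowest of the lists. Keratin 7, Krt7, was at -3.88, -3.65, -2.62 and -3.40 in BIRB796 tissue, against -0.85, -1.30, -1.38 and -1.92 in control tissue, a fall of 2.02 ± 0.30 (limma adjusted p = 0.0217). Keratin 19, Krt19, was at -2.38, -2.20, -2.49 and -2.24 in BIRB796 tissue, against -0.27, -0.53, -0.35 and -1.68 in control tissue, a fall of 1.62 ± 0.29 (adjusted p = 0.0321). In both genes control replicate 7 was the lowest control and still above all BIRB796 samples. Krt8, the partner of simple epithelial keratins, fell by 1.58 ± 0.28 (adjusted p = 0.0308).

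The membrane mucin gene Muc16 was at -9.32, -9.77, -7.31 and -9.48 in BIRB796 tissue, against -5.62, -5.73, -6.28 and -6.44 in control tissue. It was above background in 1 of 4 BIRB796 samples and all 4 controls, and fell by 2.95 ± 0.51 (limma adjusted p = 0.0298). The size of that fall rests on signals near background, and with normexp and quantile scaling the difference was -0.41. Igfbp5 and Wnt4 were the remaining called markers. Mesothelin, Msln, at -1.45 and the epicardial transcription factor gene Wt1 at -0.70 were not called. Among the largest falls outside the list, the endocytic receptor gene Lrp2 fell by 2.77 ± 0.57 (adjusted p = 0.0446) and Fgf8 by 3.20 ± 0.62 (adjusted p = 0.0387).

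The mean over the 18 mesothelial markers was -2.40 to -1.72 in BIRB796 tissue and -1.40 to -0.70 in control tissue, with control replicate 7 lowest among controls. The median difference was -1.73 on slide 6 and -1.08 with slide as a fixed term, with 0 calls. The count of fallen markers was 13 without control replicate 7, 0 without control replicate 4, 5 or 6, and 4, 0, 9 and 0 without BIRB796 replicate 1, 2, 3 and 4.

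**Figure D4:**
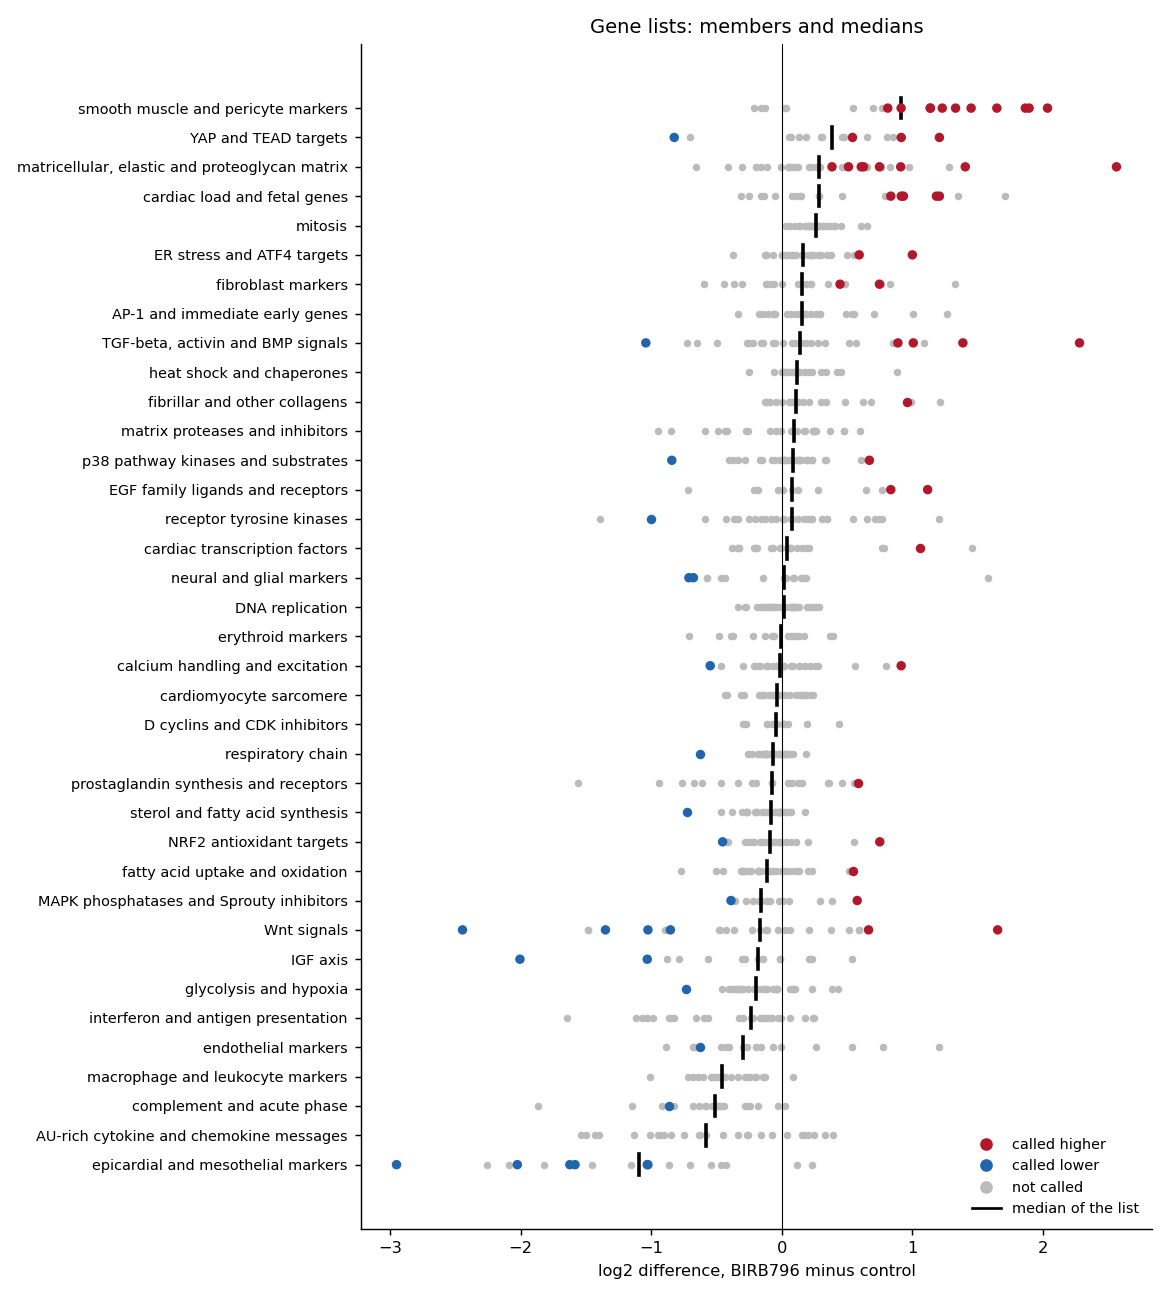
Difference between BIRB796 and control tissue (log2) for each tested gene of the 37 lists, ordered by list median (black bar); red genes were called higher, blue lower and grey not called by limma. Smooth muscle and pericyte markers have the highest median at 0.91 and epicardial and mesothelial markers the lowest at -1.09.

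Cytokine messages with AU-rich elements, whose stability p38 and MK2 are known to raise, gave no call. Of 27 tested 0 were called by limma, with 1 higher and 5 lower at an unadjusted p under 0.05. Differences were negative in 20, against 47.4% of all genes, and the median was -0.58. Il1b was at -1.31, -0.50, -0.47 and 0.33 in BIRB796 tissue, against 0.38, 0.65, 0.99 and -0.37 in control tissue, a difference of -0.90 ± 0.38 with overlapping groups (adjusted p = 0.232). The list mean was -2.06 to -0.92 in BIRB796 tissue and -1.55 to -0.66 in control tissue, so the groups overlapped. Control replicate 7 was the lowest control.

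Of 24 macrophage and leukocyte markers 0 were called by limma (0 higher and 4 lower at an unadjusted p under 0.05). In 23 the difference was negative, against 47.4% of all genes, and the median was -0.46. The median turned to 0.04 with all 7 controls, with 11 negative differences. Cd68 was at 1.62, 1.51, 1.68 and 1.96 in BIRB796 tissue, against 2.57, 2.54, 2.88 and 1.64 in control tissue (-0.71 ± 0.25, adjusted p = 0.157). The overlap came from control replicate 7. Of 23 complement and acute phase genes 22 had negative differences, against 47.4% of all genes. In that list 1 fell, the pentraxin Ptx3, by 0.86 ± 0.13 (limma adjusted p = 0.0231), where 1.77% of all genes were called lower. The median of the complement list, -0.51, turned to 0.07 with all 7 controls, with 11 negative differences and 0 calls. The values of Ptx3 were -1.13 to -0.55 in BIRB796 tissue and -0.11 to 0.04 in control tissue. The list mean of complement genes was 1.17 to 1.56 in BIRB796 tissue and 1.42 to 2.15 in control tissue. Without control replicate 7 limma called 13 macrophage markers, 13 complement genes and 3 AU-rich messages lower and 1 AU-rich message higher. The part of macrophage content in these values was not tested. Of 19 endothelial markers 1 fell, where 1.77% of all genes were called lower, and the median was -0.30. It was Kdr, the receptor of vascular endothelial growth factor, which fell by 0.63 ± 0.13 (limma adjusted p = 0.0427).

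Of 29 mitosis genes 0 were called by limma (13 higher and 0 lower at an unadjusted p under 0.05), while all 29 differences were positive, against 52.6% of all genes. The median was 0.26, and in 10 genes the groups did not overlap on the higher side, against 7.58% of all genes. Kif23, a motor protein of cell division, was at 1.63, 1.12, 0.97 and 0.95 in BIRB796 tissue, against 0.48, 0.41, 0.43 and 0.74 in control tissue (0.65 ± 0.16, adjusted p = 0.0699). The list mean was -0.02 to 0.47 in BIRB796 tissue, highest in replicate 1, and -0.10 to -0.07 in control tissue. Without BIRB796 replicate 1 the median was 0.17 and 27 differences were positive, and without control replicate 7 limma called 4 mitosis genes higher, with 28 differences positive. Of 35 DNA replication genes 0 were called (3 higher and 1 lower at an unadjusted p under 0.05), and their median was 0.01. Cyclin D1, Ccnd1, differed by -0.28 ± 0.13 (adjusted p = 0.285).

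The largest rises outside these groups included Grm8, a glutamate receptor gene, and Prss3bl1. Grm8 was at -4.03, -5.56, -5.58 and -5.61 in BIRB796 tissue and not well above background on any control array. It passed the filter on dim probes only through the BIRB796 arrays, so its difference was bound to be large. Against a floor for the control arrays its BIRB796 mean was 5.22-fold higher. The floor was, on each control array, the higher of the probe's own signal and the lowest signal of any probe well above background. That floor is not a detection limit, so 5.22-fold is not a minimum. With normexp and quantile scaling the difference was 0.80 log2. Prss3bl1 rose by 3.10 ± 0.31 (limma adjusted p = 0.0141), or 2.01 with all 7 controls (adjusted p = 0.186). Among receptor tyrosine kinases, 1 of 32 was called, near the 3.25% of all genes: Ephb1, an ephrin receptor gene, fell by 1.00 ± 0.11 (adjusted p = 0.0141).

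Single genes of metabolism were called, at shares near the 3.25% called over all genes. In sterol and fatty acid synthesis 1 of 31 was called, the desaturase gene Scd, which fell by 0.73 ± 0.13 (limma adjusted p = 0.0321). In glycolysis and hypoxia 1 of 34 fell, Aldoc by 0.73 (-0.36 with all 7 controls, adjusted p = 0.463), and in the respiratory chain 1 of 38 fell, Cox8b by 0.63. Under stress pathways, Nupr1 rose by 1.00 ± 0.14 and Phgdh by 0.59 ± 0.11 among 28 genes of endoplasmic reticulum stress and ATF4. Among 26 NRF2 targets 1 rose and 1 fell. Over all genes 1.48% were called higher and 1.77% lower. None of 23 heat shock genes was called by limma (6 higher and 0 lower at an unadjusted p under 0.05).

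Few genes were called when stretch was added to the inhibitor. Stretch with BIRB796 against BIRB796 alone, fitted over the 12 arrays of the session, gave 27 called genes of 19756 (0.137%), with 19 higher and 8 lower. In this contrast 1809 genes had a limma unadjusted p under 0.05. Against control, the same 12 arrays gave 2337 called genes (11.8%) for stretch with BIRB796 and 800 for BIRB796 alone. Of the 31 sterol and fatty acid synthesis genes 6 were higher under stretch with BIRB796. Scd was at 0.35, 0.07, 0.28 and 0.27 under stretch with BIRB796, against -0.91, -0.79, -0.69 and -0.66 in BIRB796 tissue (1.01 ± 0.12, limma adjusted p = 0.0156). The controls of the session were at -0.37 to 0.20, overlapping the stretched group and above the BIRB796 group. The contrasts of BIRB796 alone with control and with stretch use the same BIRB796 samples. A chance deviation of those samples would enter both with opposite sign.

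Between the 2 inhibitor groups, differences of smooth muscle and mesothelial genes were within their spread. Acta2 was at 3.61, 2.51, 2.64 and 2.52 under stretch with BIRB796 (-0.18 ± 0.25 against BIRB796 alone, limma adjusted p = 0.886), and Krt7 was at -3.67, -2.31, -2.85 and -3.46 (0.31 ± 0.34, adjusted p = 0.848). Grem1 differed by -0.07 ± 0.34 (adjusted p = 0.984) and Nppb by 0.33 ± 0.54 (adjusted p = 0.911). Stretch with BIRB796 replicate 1, on slide 6, was the highest sample of its group in Acta2, Ccn2, Nppa and Nppb. No gene of the smooth muscle or mesothelial list was called between the inhibitor groups, and the medians were -0.07 and 0.22. Leaving out single arrays changed the 27 calls to between 0 and 35, with 0 without BIRB796 replicate 2 or 4 or stretch with BIRB796 replicate 4, 2 without stretch with BIRB796 replicate 3, 11 without its replicate 2 and 15 without BIRB796 replicate 1.

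**Figure D5:**
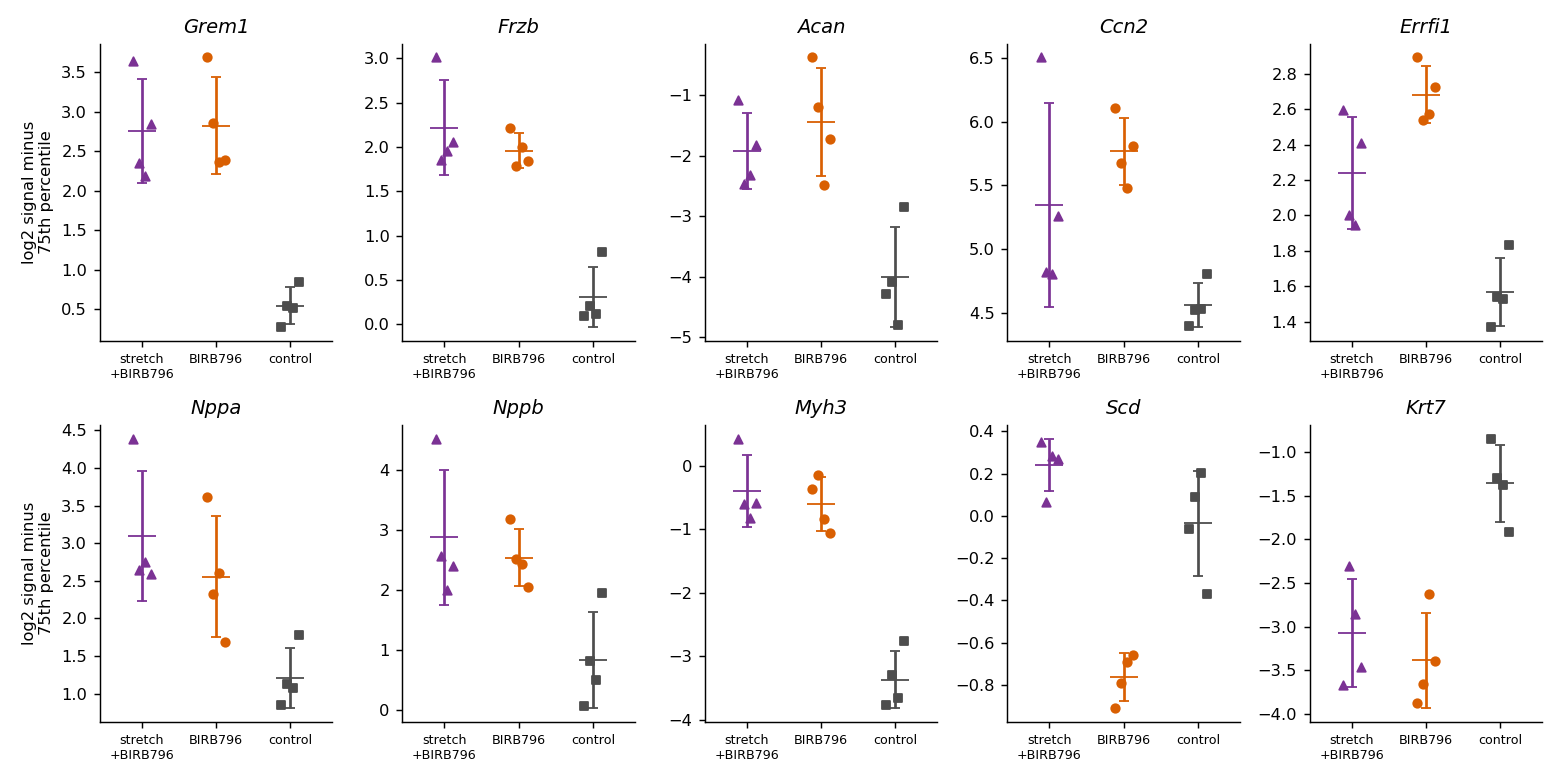
Level of 10 genes (log2 signal minus the array's 75th percentile) under stretch with BIRB796 (triangles), BIRB796 (circles) and control (squares), 4 samples each, with mean ± SD; the vertical scale differs between genes. In Grem1, Frzb, Myh3 and Errfi1 both inhibitor groups lie above the controls, while Krt7 lies below them, and Scd is lower in BIRB796 tissue than in the other groups.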

How the data were processed

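RNA from each tissue was hybridised to its own 1-colour Agilent rat array (Cy3), per the labels. Each deposited file gives the linear intensity of every spot, background-subtracted by the Feature Extraction software, per the file headers. A log2 table deposited by the authors, whose centring is not stated, correlated best with its own array in all 22 columns and served as an alternative; its column medians for the 8 arrays ran from -0.11 to 0.01.

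Outlier spots were left out, spots of a probe averaged, and each array's 75th percentile over 30367 probes subtracted on the log2 scale. Probes well above background on at least 4 of the 8 arrays were kept, with the brightest probe per gene, giving 19756 genes. Names came from a RefSeq table (GRCr8): 18387 probes by accession, 2186 by symbol, 593 by synonym, and 9201 kept the file's name. The scanner files name build rn4. Fits used limma 3.58.1 in R 4.3.3 (two-sided, Benjamini-Hochberg over all genes) without covariates, and were tested on simulated data. SE is the fit's standard error. Array signal and the number of arrays limit the precision.

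The samples, gene lists and genes named were chosen with earlier results of these data known. The text names called genes with the largest changes, list members with the smallest p, 15 genes taken whatever their values, and a few picked after their values were seen (Tagln, Myh11, Cnn1, Rgs5, Axin2, Krt8, Krt19, Il1b, Cd68, Kif23 and uncalled list members among them). Alternatives changed the background correction, scaling, filter, probe summary, arrays in the fit, slide or session terms and the replicate block. Normexp used the median spot signal. Some called genes are not reported here. Of the file numbers' same-numbered pairs 2 of 4 had deviations that correlated below 0, so the numbers were not taken to pair samples.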

Additional observations from a re-analysis of the deposited data

Results flagged for a closer look

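In 262 groups of 4 samples (94 genes and 37 list means, in each of 2 groups), 25 had a sample whose gap to its neighbour took up most of the group's range, where chance gives about 1 in 20 groups, or 13.1. Control replicate 7 was that sample in 12, BIRB796 replicate 1 in 6 and BIRB796 replicate 3 in 5.

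Control replicate 7 was far above the other controls in Frzb (0.81, others at most 0.21), Ccn1 (2.30, others at most 1.97), Mapk14 (4.05, others at most 3.92), Mapk11 (-4.01, others at most -4.24), Nupr1 (4.15, others at most 3.64), S100a4 (5.15, others at most 4.91) and the respiratory chain mean (4.81, others at most 4.68). It was far below them in Igfbp5 (0.29, others at least 0.69), Lrp2 (-3.85, others at least -2.50), Dusp1 (-2.78, others at least -2.45), the mean of matrix proteases and inhibitors (0.17, others at least 0.29) and the mean of macrophage and leukocyte markers (1.76, others at least 2.54). Control replicate 4 was high in Kcnd3 (-5.15, others at most -5.27).

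BIRB796 replicate 1, from slide 6, was high in Tpm2 (5.57, others at most 4.98), Col10a1 (-3.11, others at most -4.68), Fbln5 (3.48, others at most 2.56), Grm8 (-4.03, others at most -5.56), Foxc1 (1.66, lowest of the others 0.99) and the mean of TGF-beta, activin and BMP signals (-0.27, others at most -0.45). BIRB796 replicate 3 was low in Postn (1.96, others at least 2.69) and Ccnd1 (0.14, others at least 0.65), and high in Wnt11 (-1.96, others at most -2.35), Smtn (3.74, others at most 3.31) and the respiratory chain mean (4.83, others at most 4.58). BIRB796 replicate 4 was low in Hspb1 (4.80, others at least 4.95).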

How the results depend on the processing

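For BIRB796 against control, the 642 called genes became 1077 with normexp background and quantile scaling, 108 with no filter on dim probes (26418 genes tested), 215 with all 7 controls, 375 with slide as a random block (correlation 0.326) and 5602 with array weights and a trend. They became 0 with all 22 arrays and a session term (1339 genes at an unadjusted p under 0.05), with slide as a fixed term (2321), and with control replicates 5 and 6 averaged (2907). With each array left out the count ran from 0 to 2535. The replicate block by file number also gave 0 calls (3705 at an unadjusted p under 0.05); those numbers are not shown to pair the samples. Median scaling gave 599 calls, with 379 higher and 220 lower where the setting reported has 293 and 349, and moved the median of all genes to 0.06. The other settings (quantile scaling, a stricter filter, the mean of probes, 12 arrays and the authors' table) gave 576 to 800 calls. For stretch with BIRB796 against BIRB796 alone, the 27 calls became 6 with slide as a fixed term, 13 with median scaling, and 0 to 35 with each array left out. Among the lists, normexp with quantile scaling gave 12 fallen mesothelial markers, 6 risen YAP targets, 5 fallen complement genes and 3 risen mitosis genes, and with no filter 3 smooth muscle markers and 0 mesothelial markers were called. Of the 69 called genes named here 68 kept their direction in each of the 22 or 23 alternatives that tested them. The alternatives reuse arrays on which these genes were called, so a kept direction is not separate support. Comp turned, to -0.51 with all 7 controls. Each was called in 8 to 17 alternatives. The causes of these changes in count were not tested. Weak signal limits genes near background, and with 4 arrays a group a single array carries much of the estimated spread.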
